A study of Mus musculus with 23 samples.

Results

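Complement is a cascade of plasma proteins and cell receptors that tags microbes and dying cells and lyses or clears them. C1q, assembled from C1qa, C1qb and C1qc chains, starts the classical pathway and is made by macrophages, whereas hepatocytes make most other plasma components. C3 is the central component, properdin (Cfp) stabilises the alternative pathway convertase, and C6 belongs to the membrane attack complex. C3ar1 and C5ar1 are the receptors for the anaphylatoxins C3a and C5a. Vsig4, also called CRIg, binds C3 fragments on opsonised particles and is known as a receptor of Kupffer cells, the macrophages that reside in liver sinusoids. Open chromatin at these 9 genes was measured by ATAC-seq, in which a transposase inserts sequencing adapters into accessible DNA. The regions studied were all peaks whose nearest protein-coding gene body (mm10) within 50 kb was one of the 9, with overlapping peaks of the 23 peak lists merged. There were 59 such regions among 155137 in all, namely 16 for Vsig4, 11 for C6, 6 each for C3, C3ar1 and C5ar1, 5 for C1qb, 4 for Cfp, 3 for C1qa and 2 for C1qc.

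The libraries came from mice and formed 11 groups. Blood Ly6C-high monocytes (2 libraries) were from untreated C57BL/6J mice. Repopulating liver macrophages (RLMs) were taken from Clec4f-cre/Rosa26iDTR mice, whose Clec4f-expressing Kupffer cells carry the diphtheria toxin receptor, 24 h (3 libraries) and 48 h (2 libraries) after toxin. The Kupffer cells of that line (2 libraries) were from mice given PBS. Blood monocytes thus differ from RLMs in tissue, mouse line and toxin, and from PBS Kupffer cells in tissue, mouse line and PBS. In the comparisons with blood these cannot be told apart. Untreated Nr1h3 flox/flox Clec4f-cre +/- mice, which lose the nuclear receptor LXRα in Clec4f-expressing cells, gave TIM4- and TIM4+ Kupffer cells (2 libraries each), and Nr1h3 flox/flox mice without the cre gave control TIM4+ cells (2 libraries). The titles also call both knockout groups ClecPos and the control ClecNeg, so in both comparisons with the control genotype and this label cannot be told apart. TIM4- control cells were not analysed here, so for TIM4- knockouts TIM4 state differs from the control as well. Kupffer cells of the Smad4 experiment, untreated, were titled Smad4 knockout (2 libraries) and control (2 libraries). Their strain labels give the opposite genotypes (Smad4 flox/flox for the titled knockouts and Smad4 flox/flox Clec4f-cre +/- for the titled controls). Directions here follow the titles and would turn round if the strain labels were right. Bone marrow-derived macrophages (BMDMs) from C57BL/6J mice, cultured for 4 days, were treated with the Notch ligand DLL4 for 24 h or left untreated (2 libraries each). The titles give a mouse number for the blood, RLM and PBS Kupffer libraries and a different number for each Smad4 library. For the others nothing says that replicates are separate mice or cultures, so those p-values may cover only technical spread.

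The libraries held 10.4 to 18.4 M tags, of which 15.4% to 54.7% lay in peaks. Replicates correlated at r = 0.928 to 0.970 over shared regions. Values are normalised tag counts, tags per peak scaled to 10 M tags. The median value over the 26618 regions called in all libraries ranged between 31.8 in a titled Smad4 knockout library and 99.9 in a DLL4 library, so levels were also expressed as multiples of that library median. A region without a peak has no value, and the lowest value listed in a library was 3.81 to 6.71. Of 5 pan-macrophage marker genes, all had a peak at a gene end in every library. Of 8 hepatocyte markers, 0 had one in PBS Kupffer cells and at most 2 in any library. Of 7 Kupffer cell markers, 6 had one in PBS Kupffer cells, Nr1h3 control cells, TIM4+ knockout cells and titled Smad4 controls. This number was 5 in TIM4- knockout cells and titled Smad4 knockouts, 3 in RLMs at 48 h, 1 to 2 in RLMs at 24 h, 1 in blood monocytes and 4 to 6 in BMDMs. Of 7 monocyte markers, 6 had one in blood monocytes, 4 to 5 in RLMs at 24 h, 4 at 48 h, 2 in PBS Kupffer cells, 1 to 3 in the Nr1h3 and Smad4 groups and 6 in BMDMs. Of 6 neutrophil markers, 6 had one in BMDMs, 3 in blood monocytes and RLMs and 1 to 2 in Kupffer cells. The other lists gave 1 to 4 of 7 for endothelium, 0 to 2 of 6 for stellate cells, 0 to 3 of 5 for B cells, 1 to 3 of 6 for T and NK cells and 1 to 4 of 5 for dendritic cells. The part of these markers in the differences between blood monocytes, RLMs, Kupffer cells and BMDMs was not tested. Fewer cells with a peak and a weaker peak in each cell cannot be told apart in such bulk libraries.

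RefSeq promoter sequence (GRCm38.p6) was at hand for 8 of the 9 genes, all but C1qa. The stretches before 5 gene starts that carry a peak are printed here because the results turn on these peaks. Each runs 5′ to 3′ on the gene's strand and stops at the gene's annotated body. Capitals mark motif matches, either the PU.1 site AGGAAGT, read on the opposite strand as ACTTCCT, or the AP-1 site TGANTCA.
C1qb (minus strand, chr4:136886201-136886450): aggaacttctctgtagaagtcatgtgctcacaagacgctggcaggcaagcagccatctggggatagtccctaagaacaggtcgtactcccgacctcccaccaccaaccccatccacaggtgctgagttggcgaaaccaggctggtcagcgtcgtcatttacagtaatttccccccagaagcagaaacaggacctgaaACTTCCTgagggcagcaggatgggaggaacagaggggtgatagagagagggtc
C1qc (minus strand, chr4:136892937-136893164): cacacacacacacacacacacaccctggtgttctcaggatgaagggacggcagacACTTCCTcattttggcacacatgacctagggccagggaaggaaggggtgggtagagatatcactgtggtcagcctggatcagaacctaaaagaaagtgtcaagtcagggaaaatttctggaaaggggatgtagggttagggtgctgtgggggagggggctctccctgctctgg
C6 (plus strand, chr15:4726960-4727066): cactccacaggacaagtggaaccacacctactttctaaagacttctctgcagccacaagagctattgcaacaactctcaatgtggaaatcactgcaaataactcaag
Vsig4 (minus strand, chrX:96293439-96293688): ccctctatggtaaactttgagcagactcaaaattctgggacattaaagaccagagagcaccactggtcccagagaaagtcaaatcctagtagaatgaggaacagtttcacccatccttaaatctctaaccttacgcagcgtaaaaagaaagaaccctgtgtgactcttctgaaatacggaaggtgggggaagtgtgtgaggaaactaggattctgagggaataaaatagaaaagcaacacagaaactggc
C3ar1 (minus strand, chr6:122856158-122856407): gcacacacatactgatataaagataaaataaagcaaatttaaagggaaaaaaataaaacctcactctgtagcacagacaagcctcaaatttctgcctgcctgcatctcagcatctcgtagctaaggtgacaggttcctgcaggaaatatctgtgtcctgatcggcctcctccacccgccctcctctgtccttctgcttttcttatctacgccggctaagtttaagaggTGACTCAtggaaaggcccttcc
The 250 bases before the RefSeq start of all 8 genes were searched on both strands for 8 motifs. For C1qc, C6 and C5ar1 that start lies inside the annotated body. Of their 250 bases only 228, 107 and 48 lie before the body. C1qb held a PU.1 match 53 to 47 bases before the RefSeq start, and C1qc one 195 to 189 bases before it. C5ar1 held a pair, both inside its annotated body. Of all 32851 promoter windows of that length, 7.69% held at least 1. C3ar1 held an AP-1 match 22 to 16 bases before its start, a motif found in 6.75% of all windows. The other 6 motifs had no match in these 8 windows. They were the MAF site TGCTGAC, which can overlap an AP-1 site (3.81% of all windows), the RBPJ site TGGGAA (21.6%), the LXR direct repeat (0.621%), the Smad palindrome GTCTAGAC (0.167%), the IRF repeat (2.98%) and the TFEB and MITF E box TCACGTG (3.13%). The C6 and Vsig4 windows held a match to none of the 8, but only 107 bases of the C6 window lie before the gene body.

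Of the 59 regions, 13 (22.0%) had a peak in all 23 libraries, against 17.2% of all regions, and 11 (18.6%) in a single library, against 16.7%. Those present throughout were regions of the receptors, of C3 and properdin, and of the flanks of C6 and Vsig4. Among them were the starts of C3, C3ar1 and Cfp and a pair of regions inside C5ar1. None of the 10 C1q regions was present throughout. The dominant region of each C1q gene had a peak in 22 libraries and lacked one in a single blood library.

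**Figure D1:**
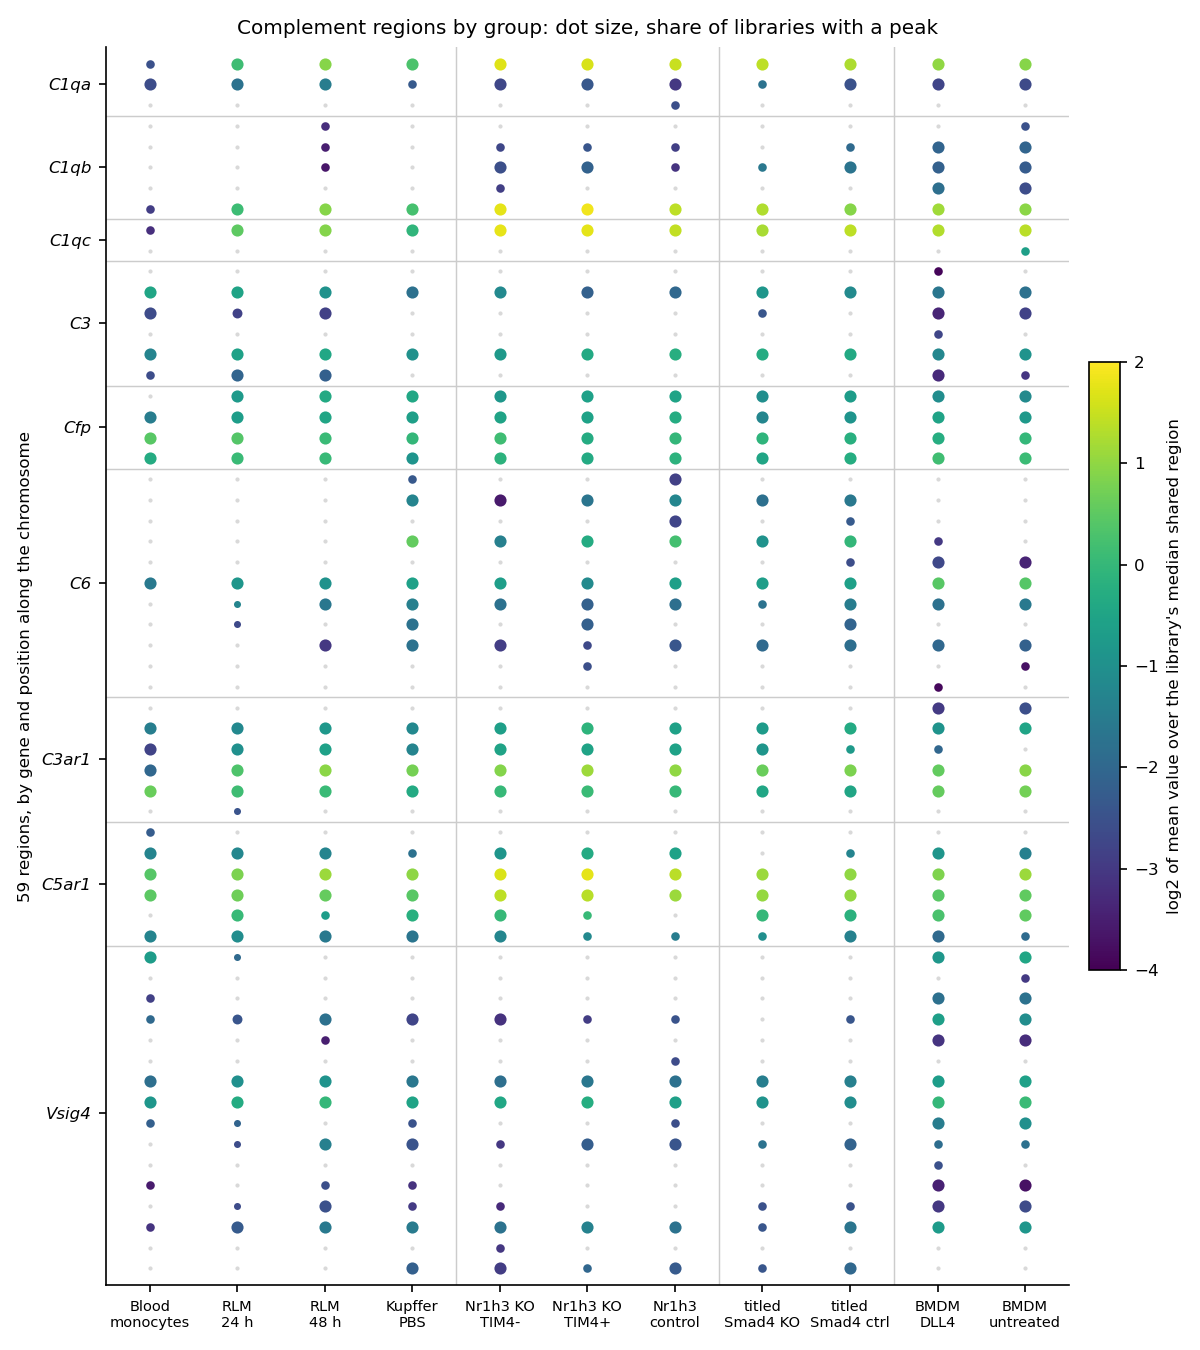
Each row is one of the 59 regions, grouped by gene, and each column one of the 11 groups; dot area gives the share of the group's libraries with a peak and colour the log2 of the mean value over the library median, with small grey points where no library had a peak. The C6 gene start appears as dots in the 6 Kupffer cell groups alone. The region inside C6 has dots in those and a smaller one in DLL4-treated BMDMs, from 1 library. The C1q gene-end regions are small and dark in blood monocytes and brighter in every other group.

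The C1q genes lie side by side on chromosome 4, and each had 1 dominant region. These were chr4:136886050-136886519 at the C1qb start, chr4:136892860-136893185 at the C1qc start and chr4:136898736-136899042 at the gene end of C1qa that lies away from C1qc. They carried almost no signal in blood monocytes and strong signal in every macrophage group. In blood monocytes the C1qa region had 12.2 normalised tags in 1 library and no peak in the other. The C1qb region had 12.0 in blood library 2 and no peak in library 1, and the C1qc region 9.87 and no peak, again with library 2 as the one called. Since no C1q end region was called in both blood libraries, none could be tested against blood. In RLMs at 24 h the C1qa region reached 82.4, 104.4 and 50.3, at 48 h 141.2 and 157.0, and in PBS Kupffer cells it had 64.5 and 89.2. For C1qb the values were 63.7, 109.0 and 61.6 at 24 h, 149.9 and 151.8 at 48 h, and 60.7 and 88.2 in PBS Kupffer cells. For C1qc they were 111.4, 117.1 and 80.6 at 24 h, 154.3 and 138.6 at 48 h, and 47.4 and 71.9 in PBS Kupffer cells. Both 48 h libraries thus lay above all 24 h libraries and above both PBS Kupffer libraries at each of the 3 regions. Within a library the 3 regions were close in height: the strongest was 1.03 to 1.75 times the weakest (median 1.24) in the 21 libraries that had all 3.

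**Figure D2:**
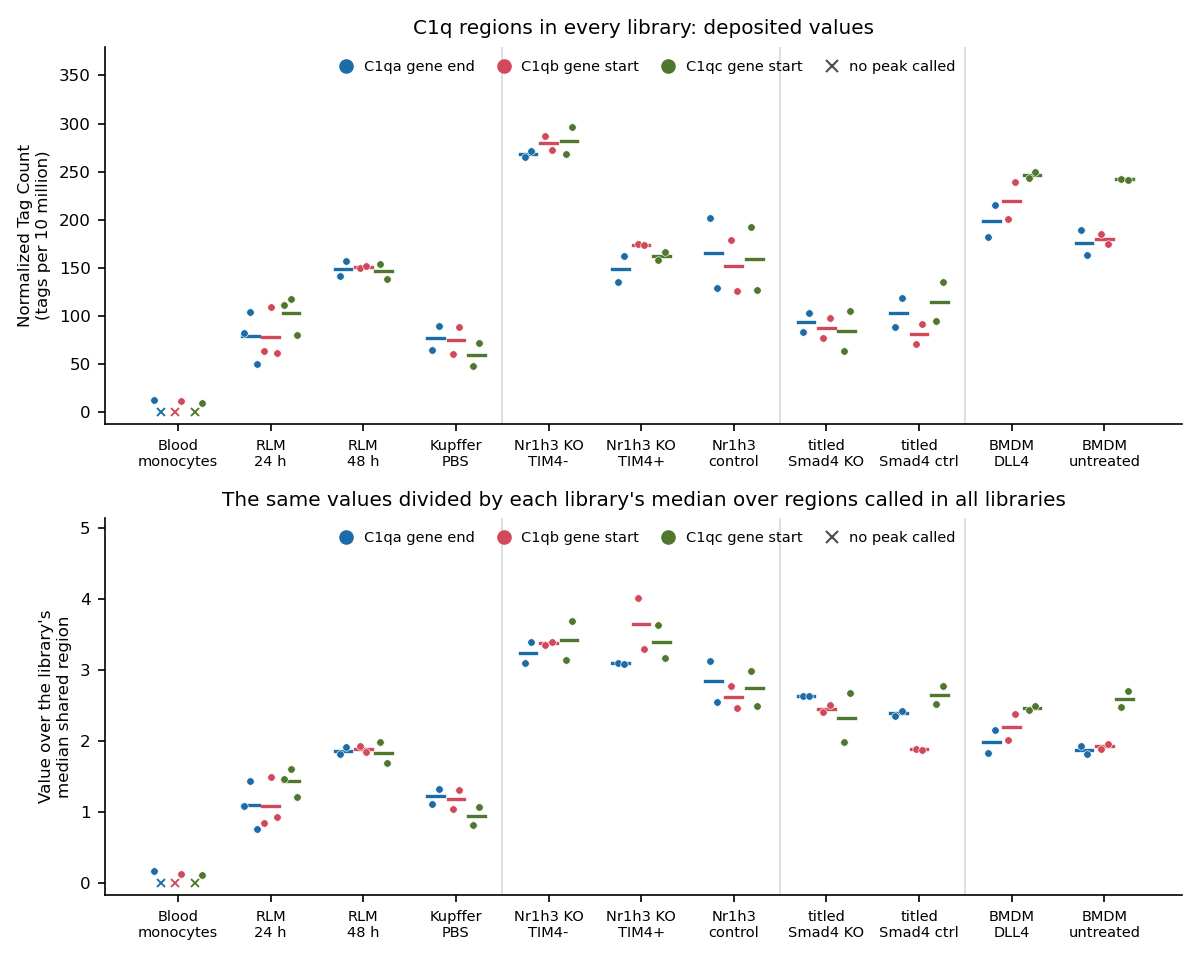
Normalised tag count (upper panel) and multiple of the library median (lower panel) of the 3 C1q gene-end regions in each of the 23 libraries; points are libraries, bars group means of groups with a peak in every library, and crosses mark libraries without a peak. PBS Kupffer cells lie below RLMs at 48 h, with C1qb at 60.7 and 88.2 against 149.9 and 151.8.

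RLMs at 48 h were compared with those at 24 h. Of 23 complement regions with a peak in all 5 libraries, 3 rose and 0 fell at an adjusted p under 0.05 (limma on log2 values, each library centred on its median region), against 1.92% of all regions tested that rose and 3.53% that fell. These were C1qb (log2 fold change 0.83 ± 0.21 SE, adjusted p = 0.0241), C1qa (0.80 ± 0.22, adjusted p = 0.0295) and the C3ar1 start (0.63 ± 0.18, adjusted p = 0.0413). C1qc, at 146 ± 11.1 in 48 h RLMs and 103 ± 19.6 in 24 h RLMs (SD, n = 2 and 3), did not pass (log2 fold change 0.36 ± 0.18, adjusted p = 0.255). All 3 calls were lost without RLM 24 h replicate 1, without RLM 48 h replicate 1 or without RLM 48 h replicate 2.

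PBS Kupffer cells compared with RLMs at 48 h gave more falls than rises. Of 24 regions tested, 9 fell (12.6% of all regions fell) and 1 rose (13.7% of all regions rose). The 3 C1q end regions were among the 9. C1qc fell by 1.03 ± 0.20 on the log2 scale (adjusted p = 8.3e-05), C1qb by 0.75 ± 0.19 (adjusted p = 0.0022) and C1qa by 0.68 ± 0.19 (adjusted p = 0.0051). C1qc passed under every alternative run, whereas C1qa and C1qb did not pass without Kupffer replicate 1 (adjusted p = 0.0823 and 0.0585). C1qa was also lost without RLM 48 h replicate 2 (adjusted p = 0.0731). On the scale of library medians, the fall held for the PBS Kupffer cells of this line and not for every Kupffer cell group. As a multiple of the library median the C1qa region stood at 1.82 and 1.91 in RLMs at 48 h and 1.12 and 1.33 in PBS Kupffer cells, but at 3.14 and 2.55 in Nr1h3 control Kupffer cells and 2.36 and 2.43 in titled Smad4 controls. For C1qc it was 1.99 and 1.69 at 48 h, 0.820 and 1.07 in PBS Kupffer cells, 2.99 and 2.50 in Nr1h3 controls and 2.52 and 2.77 in titled Smad4 controls. C1qb was 1.93 and 1.85 at 48 h, 1.05 and 1.31 in PBS Kupffer cells, 2.78 and 2.47 in Nr1h3 controls and 1.89 and 1.88 in titled Smad4 controls. On this scale both control groups lay above PBS Kupffer cells at all 3 regions. They also lay above 48 h RLMs, except for C1qb in titled Smad4 controls. In normalised tags, however, titled Smad4 controls lay below both 48 h RLM libraries at all 3 regions. They had 88.4 and 118.1 at C1qa, 70.9 and 91.3 at C1qb, and 94.5 and 135.0 at C1qc. At C1qa and C1qb they overlapped with PBS Kupffer cells. In normalised tags Nr1h3 control replicate 1 lay above both 48 h libraries and replicate 2 below both. These levels come from separate experiments and were not tested against each other. A region just upstream of the properdin gene, chrX:20932030-20932334, had 23.7 and 45.1 in PBS Kupffer cells and 68.0 and 98.3 in 48 h RLMs (log2 fold change -1.01 ± 0.26, adjusted p = 0.0024). It did not pass without Kupffer replicate 1 or without RLM 48 h replicate 2 (adjusted p = 0.0999 and 0.114). The remaining 5 that fell were a region inside C3, one inside C3ar1 and 3 downstream of Vsig4, with log2 fold changes of -0.76 to -1.02. Each of these 5 lost its call without at least 1 of the 4 libraries. The region that rose lay 17.7 kb past the end of C6 (chr15:4821754-4822210), with 17.1 and 20.1 in Kupffer cells and 7.84 and 11.7 in 48 h RLMs (log2 fold change 1.17 ± 0.34, adjusted p = 0.0085). It did not pass without RLM 48 h replicate 1 (adjusted p = 0.0966). Without Kupffer replicate 1 the calls were 2, without RLM 48 h replicate 1 or 2 they were 4 each.

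C6 showed the sharpest presence pattern of the 9 genes. The region at its start, chr15:4726903-4727175, had a peak in 12 of 12 Kupffer cell libraries and in 0 of 11 libraries of blood monocytes, RLMs and BMDMs. In all, 164 of 155137 regions (0.106%) had a peak in those 12 and in no other library, and this was the only complement region among them. Its values were 19.9 and 31.6 in PBS Kupffer cells and 6.54 to 27.8 in the other Kupffer cell groups. A region inside the gene, chr15:4734186-4734511, about 7 kb from the start, was stronger. It had 84.4 and 98.7 in PBS Kupffer cells, a peak in all 12 Kupffer libraries, no peak in blood or RLMs, and 12.4 in 1 of the 4 BMDM libraries. The share of all regions with this looser pattern was not counted. The nearest peak of 48 h RLMs lay 82358 bp from the region inside C6, past the other end of the gene. As multiples of the library median, the region inside C6 ranked PBS Kupffer cells first (1.46 and 1.47), then Nr1h3 control cells (1.13 and 1.18), titled Smad4 controls (0.840 and 1.13), TIM4+ knockout cells (0.882 and 0.702), titled Smad4 knockouts (0.509 and 0.524) and TIM4- knockout cells (0.434 and 0.313). Titled Smad4 controls overlapped with Nr1h3 controls and with TIM4+ knockouts. The remaining neighbours did not overlap, and these levels across experiments were not tested. The region 12.8 kb past the end of C6, chr15:4816813-4817099, had a peak in all 23 libraries and was highest in BMDMs, with 134.4 and 136.1 after DLL4 and 120.9 and 127.8 untreated, against 15.3 to 53.6 elsewhere.

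**Figure D3:**
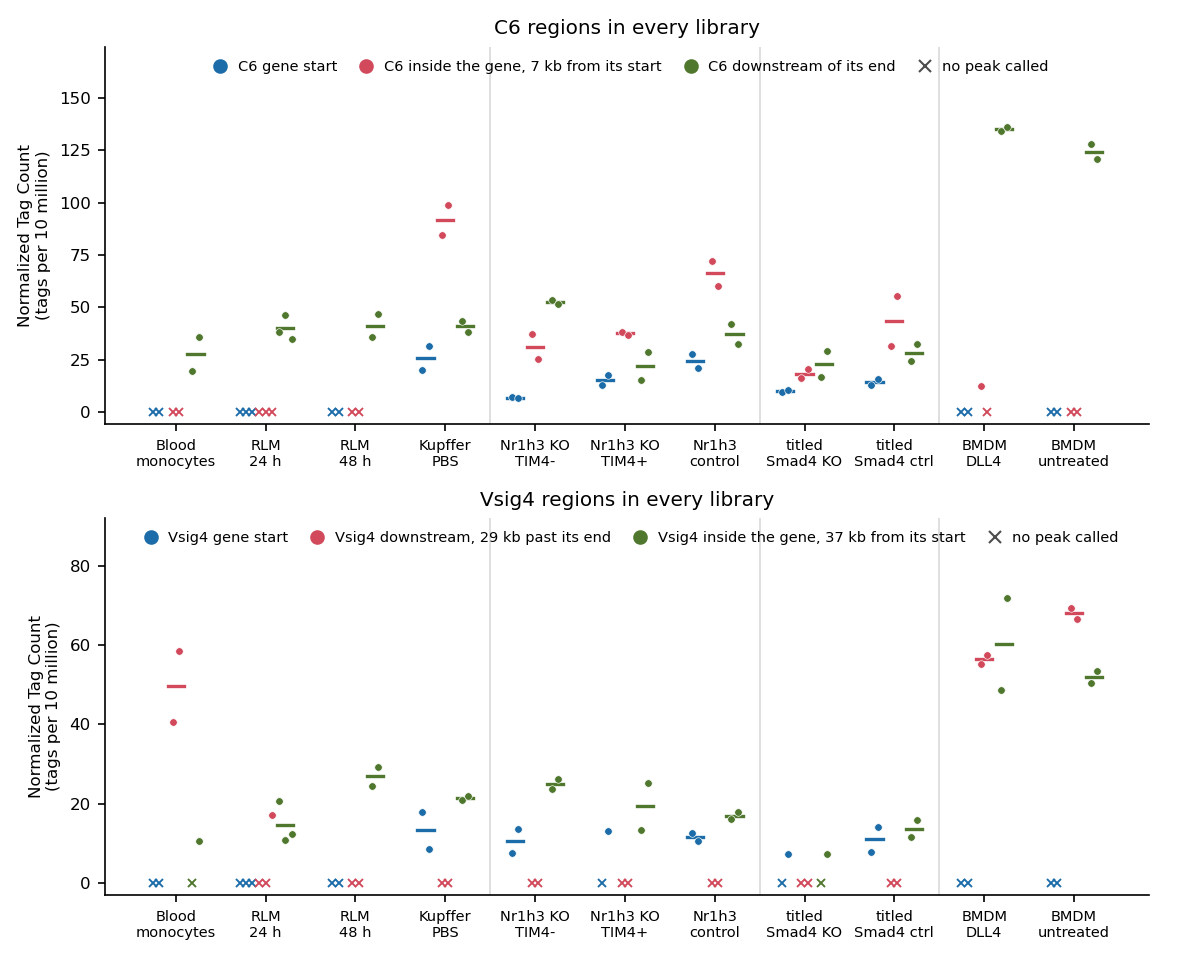
Normalised tag count of 3 C6 regions (upper panel) and 3 Vsig4 regions (lower panel) in each of the 23 libraries, with points for libraries, bars for means of groups with a peak in every library and crosses where no peak was called. The C6 gene start and the region inside C6 have points in the Kupffer groups and crosses in blood monocytes and RLMs, while the Vsig4 region 28.8 kb past the gene end has points in blood monocytes, both BMDM groups and 1 RLM library.

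Vsig4 had a weak start region, chrX:96293312-96293660, called in 10 of 12 Kupffer cell libraries and in 0 of 11 others. It had 18.0 and 8.63 in PBS Kupffer cells, 7.66 and 13.6 in TIM4- knockouts, and 12.7 and 10.6 in Nr1h3 controls, and it was called in 1 of the 2 TIM4+ knockout libraries. Titled Smad4 knockouts had no peak and 7.44, and titled controls 7.87 and 14.2. The lowest values listed anywhere in these libraries were 3.81 to 6.71. A region 28.8 kb past the gene's other end (chrX:96218111-96218434) ran the other way: it had 40.7 and 58.5 in blood monocytes, 55.2 and 57.5 in DLL4-treated and 69.4 and 66.6 in untreated BMDMs, and 17.1 in 1 of 3 RLM libraries at 24 h. No 48 h RLM and no Kupffer cell library had a peak there. The share of all regions with the presence pattern of the Vsig4 start, or of this distal region, was not counted. Of the 16 Vsig4 regions, those 7.2 and 8.6 kb past the gene end were called in all 23 libraries, and 4 were called in a single library. The one 7.2 kb past the end, strongest by mean, had 89.3 to 108.1 in BMDMs, 74.1 and 85.1 in 48 h RLMs and 38.9 and 48.9 in PBS Kupffer cells. As multiples of the library median these were 0.979 to 1.11, 0.955 and 1.04, and 0.673 and 0.729. Inside the gene, chrX:96256545-96256895 had 48.7 to 71.8 in BMDMs and 20.9 and 22.0 in PBS Kupffer cells. BMDMs were not tested against Kupffer cells.

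PBS Kupffer cells had 4 complement regions with a peak in both libraries that no 48 h RLM library had, of 41 called in either group (9.76%, against 4.53% of all regions). They were the C6 start, the region inside C6, a C6 region 17.1 kb past its end and the Vsig4 start. The C6 region past the end lay 406 bp from the nearest 48 h peak, the others 6789 to 89694 bp. The reverse held for 2 regions, one inside C3 and one upstream of it (4.88%, against 12.8% of all regions). The nearest Kupffer peak lay 417 bp from the region inside C3 and 1455 bp from the upstream one. Against blood monocytes, 9 of 40 complement regions were called in both Kupffer libraries and in neither blood library (22.5%, against 12.8% of all regions), 5 of them at C6, 2 at Vsig4 and 1 each at C5ar1 and Cfp. Of those at C6, chr15:4817170-4817439 lay only 71 bp from the nearest blood peak. The rest of the 9 lay 1063 to 89644 bp from one. In the other direction there were 2, chr17:57219901-57220151 inside C3 and the distal Vsig4 region (5.0%, against 15.9% of all regions). The nearest Kupffer peak lay 417 bp from the C3 region and 8661 bp from the Vsig4 region. RLMs at 24 h had 2 regions that blood lacked, at C5ar1 and 1.6 kb past the end of Cfp (3.02% of all regions), and blood had 0 that those RLMs lacked (4.49%). RLMs at 48 h had 1 that those at 24 h lacked, the C6 region 17.7 kb past its end (5.09%), and 0 the other way (0.609%). The nearest 24 h peak lay 316 bp from that C6 region. The C5ar1 region (chr7:16259194-16259427) had no peak in both blood and both Nr1h3 control libraries and in 1 library each of 48 h RLMs and TIM4+ knockouts, yet had 34.7 to 137.0 where called. Its ratio to the local background, which the peak caller required to be 4-fold, was 4.36 to 12.1 with a median of 5.85 over the libraries with a peak. The nearest blood peak lay 1063 bp away. Neighbouring peaks that did not overlap were kept as separate regions, so a group-only region can lie beside a peak of the other group.

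At the gene for the C3a receptor, C3ar1, the start region separated blood monocytes from all macrophage groups, in liver and in culture. This region (chr6:122856033-122856288) had 18.7 and 20.4 normalised tags in blood monocytes, 95.5, 102.6 and 73.0 in RLMs at 24 h, 138.6 and 174.6 at 48 h, and 100.5 and 107.4 in PBS Kupffer cells. BMDMs had 136.6 and 156.7 after DLL4 and 197.8 and 162.0 untreated. No library of any macrophage group fell to the blood values, the lowest being 43.5 in a titled Smad4 knockout library. The rise over blood was 2.41 ± 0.26 on the log2 scale in RLMs at 24 h (adjusted p = 7.8e-08) and 2.74 ± 0.27 in PBS Kupffer cells (adjusted p = 1.2e-13). A region inside the gene (chr6:122854416-122854947) rose with it, by 1.74 ± 0.35 in RLMs at 24 h (adjusted p = 4.8e-04) and 1.49 ± 0.35 in Kupffer cells (adjusted p = 2.8e-04). A region 6.7 kb upstream (chr6:122862822-122863196) did the reverse in Kupffer cells, with 43.6 and 54.6 there and 107.4 and 141.7 in blood monocytes (log2 fold change -0.93 ± 0.21, adjusted p = 2.0e-04). In RLMs at 24 h that region had 71.1, 76.3 and 88.2, below both blood values, and its change of -0.38 ± 0.20 did not pass (adjusted p = 0.154). All 5 of these calls at C3ar1 against blood held under every alternative that gave the region a value. The region inside the gene has none once peaks under 16 are dropped, and the upstream region none with an overlap of 100 bp. Another region inside the gene, chr6:122852700-122853038, called in all 23 libraries, did not pass against blood by limma. Its log2 fold change was 0.34 ± 0.31 in RLMs at 24 h (adjusted p = 0.453) and 0.29 ± 0.32 in PBS Kupffer cells (adjusted p = 0.463).

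RLMs at 24 h against blood monocytes gave 8 regions that rose and 0 that fell of 17 tested, while 16.7% of all regions rose and 9.33% fell. Beside the pair at C3ar1 they were a region 8.3 kb from C1qa, the C3 start, and regions at Cfp, C6, Vsig4 and C5ar1, with log2 fold changes of 0.52 to 1.10. The C3 start (chr17:57228014-57228445) had 57.1, 45.4 and 43.6 in RLMs at 24 h and 29.3 and 35.9 in blood monocytes (log2 fold change 0.83 ± 0.27, adjusted p = 0.0242). Without centring each of those 6 lost its call and the count was 2, both at C3ar1. Leaving out blood replicate 1 or 2 gave 5 and 3 calls, and leaving out RLM replicate 1 or 2 gave 4 and 5.

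PBS Kupffer cells against blood monocytes gave 5 regions that rose and 2 that fell of 15 tested (25.7% and 25.3% of all regions). The C3a receptor gave 3 of the 7 calls. A region inside C3 (chr17:57219235-57219526) had 18.0 and 18.2 in Kupffer cells and 47.2 and 69.1 in blood monocytes (log2 fold change -1.21 ± 0.31, adjusted p = 6.8e-04), and held under every alternative run. The others were the downstream C6 region (1.00 ± 0.31, adjusted p = 0.0053), a region inside Cfp (0.84 ± 0.30, adjusted p = 0.0166) and one inside C5ar1 (0.58 ± 0.19, adjusted p = 0.0096), of which each lost its call without centring. With no centring the split was 2 that rose and 4 that fell. The median log2 fold change of the complement regions tested, beside that of all regions tested, was 0.52 and 0.09 for RLMs at 24 h against blood, 0.20 and -0.08 for 48 h against 24 h, -0.45 and -0.01 for Kupffer cells against 48 h, and 0.29 and -0.0036 for Kupffer cells against blood. These repopulation comparisons share the blood, 24 h, 48 h or Kupffer libraries with one another.

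**Figure D4:**
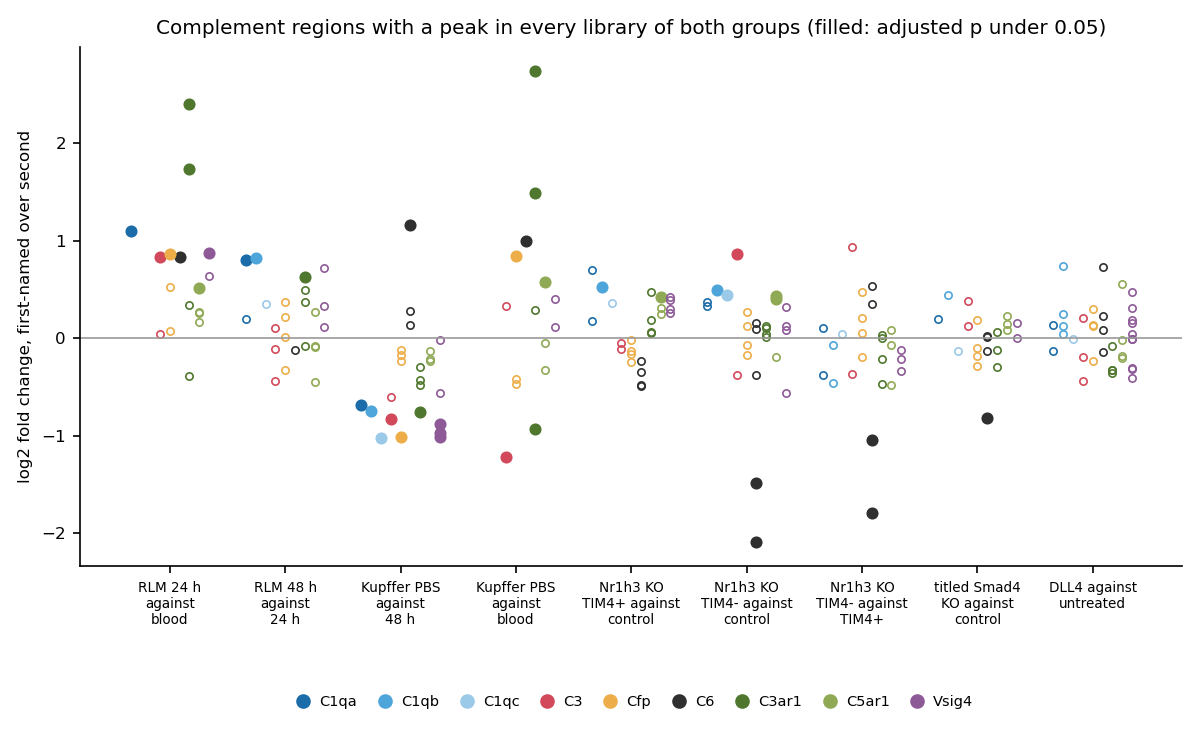
Log2 fold change, first-named group over second, of each complement region with a peak in every library of both groups, for the 9 comparisons; colour gives the gene and filled points passed an adjusted p under 0.05 over all regions. The 3 lowest filled points are at C6 in TIM4- Nr1h3 knockout cells, with the start at -2.10 against controls and -1.79 against TIM4+ knockouts, and the region inside the gene at -1.49 against controls.

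In the Nr1h3 experiment the largest differences among these regions that passed the test were at C6. At the C6 start TIM4- knockout cells had 7.07 and 6.54, TIM4+ knockout cells 12.8 and 17.7, and control TIM4+ cells 27.8 and 21.1. The TIM4- peaks there were weak, as the lowest values listed in those libraries were 4.12 and 3.81. Inside C6 the values were 37.1 and 25.1 in TIM4- knockouts, 38.3 and 36.9 in TIM4+ knockouts and 72.3 and 60.1 in controls. TIM4- knockouts lay below controls at both regions without overlap. The log2 fold change was -2.10 ± 0.33 at the start (adjusted p = 6.1e-08) and -1.49 ± 0.22 inside the gene (adjusted p = 6.0e-09). Both calls held under every alternative that gave a value, which the start lacks once peaks under 16 are dropped. TIM4+ knockouts, also below controls in every library, had log2 fold changes of -0.34 ± 0.30 (adjusted p = 0.527) and -0.49 ± 0.21 (adjusted p = 0.126). TIM4- against TIM4+ knockout cells differed by -1.79 ± 0.33 at the start (adjusted p = 4.5e-05) and by -1.04 ± 0.25 inside the gene (adjusted p = 0.0068). The second of these was lost without centring (log2 fold change -0.29, adjusted p = 0.371), without TIM4- replicate 2 (adjusted p = 0.291) and without TIM4+ replicate 1 (adjusted p = 0.217). As given above, 5 of 7 Kupffer marker genes had a peak at an end in TIM4- knockouts and 6 of 7 in the other 2 groups, and the part of this in the C6 result was not tested.

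Across the members, TIM4- knockouts against controls gave 5 regions that rose and 2 that fell of 26 tested (7.03% and 6.68% of all regions). The 5 were a region inside C3 (chr17:57219235-57219526), with 30.0 and 43.0 in TIM4- knockouts and 17.4 and 11.9 in controls (log2 fold change 0.86 ± 0.29, adjusted p = 0.028), the C1qb and C1qc starts (0.49 ± 0.15 and 0.45 ± 0.15, adjusted p = 0.0097 and 0.0224) and a pair inside C5ar1 (0.40 and 0.44, adjusted p = 0.0485 and 0.0339). Before centring the median region of the TIM4- libraries lay 0.40 above that of the controls. Without centring the changes at C1qb, C1qc and the pair inside C5ar1 were 0.90, 0.85, 0.80 and 0.84, and 8 complement regions rose and 2 fell, as 12329 of all 46888 regions rose and 1178 fell. None of these 5 passed without control replicate 2, where the 2 C6 calls were all that was left. Without control replicate 1, 4 calls were left, and without TIM4- replicate 2, 3. TIM4+ knockouts against the same controls gave 2 that rose and 0 that fell of 25 (4.86% and 3.91% of all regions), the C1qb start (0.52 ± 0.14, adjusted p = 0.0078) and a region inside C5ar1 (0.43 ± 0.15, adjusted p = 0.0429). C1qb had 286.9 and 272.4 in TIM4- knockouts, 174.3 and 173.4 in TIM4+ knockouts, and 178.7 and 125.4 in controls. Before centring the median region of the TIM4- libraries lay 0.75 above that of the TIM4+ libraries on the log2 scale, and C1qb did not differ by the test after it (log2 fold change -0.07 ± 0.15, adjusted p = 0.906). Both TIM4+ calls were lost without centring, without control replicate 2 and without TIM4+ replicate 1, and 1 was left without control replicate 1 or TIM4+ replicate 2. TIM4- against TIM4+ knockouts gave 0 regions that rose and 2, both at C6, that fell of 25 (0.607% and 1.5% of all regions). With no centring that comparison gave 15 that rose and 1 that fell, while 28314 of all 41838 regions rose and 147 fell, so this split is not particular to the complement regions. The median log2 fold change of the complement regions tested, beside that of all regions tested, was 0.11 and 0.08 for TIM4- knockouts against controls, 0.18 and 0.08 for TIM4+ knockouts against controls, and -0.07 and -0.03 between the knockouts. By presence, TIM4- knockouts had 1 region that controls lacked, at C5ar1 (6.6% of all regions), and controls had 2, both weak ones at C6 (3.5%). TIM4+ knockouts had 1 that controls lacked, at C6 (1.06%), and controls had the same count of 2 (7.69%). TIM4- knockouts had 0 that TIM4+ knockouts lacked (10.9%), and TIM4+ knockouts had 1, at C6 (0.559%). In both comparisons the C6 region of TIM4+ knockouts was chr15:4821186-4821484. It lay 270 bp from a control peak and 480 bp from a TIM4- peak.

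Libraries titled Smad4 knockout differed from titled controls at 1 of 21 complement regions, which fell (1.57% of all regions rose and 1.5% fell). It was again the region inside C6, with 16.2 and 20.5 in titled knockouts and 31.5 and 55.2 in titled controls (log2 fold change -0.82 ± 0.25, adjusted p = 0.048). The groups did not overlap, but the call was lost without any 1 of the 4 libraries (adjusted p = 0.0811 to 0.474), without centring (adjusted p = 0.0856) and with quantile normalisation (adjusted p = 0.102). At the C6 start the values were 9.49 and 10.5 in titled knockouts and 12.7 and 15.9 in titled controls (log2 fold change -0.13 ± 0.31, adjusted p = 0.895). The Smad4 libraries had median values of 31.8 to 48.7 over shared regions. Their C1q values of 63.1 to 104.8 in titled knockouts and 70.9 to 135.0 in titled controls were 1.98 to 2.68 times the library median in titled knockouts and 1.88 to 2.77 times in titled controls. Titled knockouts had 0 complement regions that both controls lacked (1.24% of all regions), and titled controls had 1, the C6 region 17.1 kb past its end (6.97%). The nearest titled knockout peak lay 406 bp from that region.

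DLL4 against untreated BMDMs gave 0 calls of 36 complement regions (limma; 2.36% of all regions rose and 1.52% fell). At an unadjusted p under 0.05, 5 were higher and 1 lower, and limma voom on whole tags also gave 0. C1q regions were strong in both groups. C1qc had 243.4 and 249.7 after DLL4 and 242.0 and 241.7 untreated, which gave a log2 fold change of -0.01 ± 0.12. C1qb had 200.6 and 238.7 after DLL4 and 184.9 and 175.2 untreated (0.25 ± 0.12, adjusted p = 0.28). Neither group had a peak at the C6 or Vsig4 start, and 0 complement regions had a peak in both libraries of one group and in neither of the other (2.1% of all regions for DLL4 and 2% for untreated).

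The other complement genes, a list of 45, had 216 regions at 39 genes. In Kupffer cells against RLMs at 48 h, 5 of 64 tested regions of the list rose (7.81%, against 13.7% of all regions) and 10 fell (15.6%, against 12.6%). Among them, a region at Cd55, the decay-accelerating factor, rose by 1.40 ± 0.25 on the log2 scale (adjusted p = 1.8e-05), one at Csmd1 by 1.31 ± 0.33 (adjusted p = 0.0021), and one at Cd93 fell by 1.46 ± 0.28 (adjusted p = 6.1e-05). Against blood monocytes 12 rose and 15 fell of 53, which is 22.6% and 28.3% and near the 25.7% and 25.3% of all regions. Among them were the Cd55 region (2.25 ± 0.30), one at C1rl (-1.81 ± 0.33) and one at Cd93 (-1.72 ± 0.32). In RLMs at 24 h against blood 8 rose and 5 fell of 68 (11.8% and 7.35%, against 16.7% and 9.33% of all regions), led by regions at Itgam, a chain of complement receptor 3 (-2.26 ± 0.26), the ficolin gene Fcnb (-1.75 ± 0.28), Cd46 (1.54 ± 0.30), Cd93 (1.54 ± 0.26) and Serping1, the C1 inhibitor (1.42 ± 0.35). RLMs at 48 h against 24 h gave 0 that fell and 1 that rose of 69 (1.45%, against 1.92% of all regions), at C4b (1.25 ± 0.33, adjusted p = 0.0243).

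In TIM4- Nr1h3 knockouts against controls 10 regions of the list rose and 5 fell of 66 (15.2% and 7.58%, against 7.03% and 6.68% of all regions). Among them were those at Cd55 (-2.07 ± 0.29, adjusted p = 4.7e-10), Serping1 (-1.06 ± 0.34) and the complement receptor 4 chain Itgax (0.90 ± 0.31). TIM4- against TIM4+ knockouts gave 0 that rose and 3 that fell of 63 (4.76%, against 1.5% of all regions), among them one at the ficolin gene Fcna (-1.14 ± 0.34, adjusted p = 0.0414). TIM4+ knockouts against controls gave 5 that rose and 2 that fell of 60 (8.33% and 3.33%, against 4.86% and 3.91% of all regions), the falls being at Cd55b (-1.17 ± 0.30) and Cd55 (-1.14 ± 0.28). The list gave 0 calls of 51 between titled Smad4 knockouts and controls (limma), with 6 higher and 2 lower at an unadjusted p under 0.05. DLL4 gave 1 that rose of 104 (0.962%, against 2.36% of all regions), at the factor B gene Cfb (1.25 ± 0.28, adjusted p = 0.0017), and 3 that fell (2.88%, against 1.52%), at Cd93 (-1.70 ± 0.32), Itgam (-1.21 ± 0.15) and Susd4 (-0.54 ± 0.15).

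Genes were also ranked by how closely their summed signal followed a member's over the 11 group means (log2 scale, 12824 genes with at least 3 regions). For C6 the closest were Rgs20 (Pearson r = 0.978), Malrd1 (0.968) and Fer (0.966). For C3ar1 they were Cd84 (0.983), Ctsd (0.981) and Lpar6 (0.978). Nup88 came first for all 3 C1q genes, with r of 0.960 for C1qa, 0.986 for C1qb and 0.978 for C1qc. The first for the others were Actn4 for Vsig4 (0.992), Mdm2 for Cfp (0.996), Phgdh for C3 (0.975) and Senp2 for C5ar1 (0.983). All these points share the libraries and their depth. The sums were not divided by the library median, which ranged from 31.8 to 99.9. Group means of summed Cfp signal, for example, ran from 91.6 to 311 in normalised tags, but from 2.50 to 3.58 as multiples of that median. The part of library signal in these correlations was not tested, and the values describe likeness over the groups.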

How the data were processed

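ATAC-seq of mouse monocytes and macrophages was deposited as 23 peak lists, 1 for each library. Per the submitters' processing notes Bowtie2, HOMER and the mm10 build were used. Per the file headers HOMER called peaks in each library without input, at a false discovery rate of 0.001, with at least 4-fold the tags of the surrounding 10 kb. The deposited value is a coverage signal, the normalised tag count scaled by the authors to 10 M tags; the authors' fold over local background, a ratio, was used only to describe 1 region. Peaks on the 19 autosomes and X that overlapped by at least 1 bp were merged, and the strongest peak of a library gave its value. Regions with a peak in each library of the compared groups were tested with limma (eBayes trend, two-sided) on log2(value + 1), each library centred on its median, with Benjamini-Hochberg adjustment over all regions, so fold changes understate low regions. The members and lists were chosen with earlier results of these data known. All members are named, with their strongest, end, called and group-only regions, and up to 5 regions of other complement genes a comparison; some of these are not reported here. Limma 3.58.1 and Python 3.11.15 were used, and the fit was tested on simulated data. The depth of each library and the threshold of its peak calls limit the precision of weak regions. Alternatives were normalisation, pseudocount, peak threshold, overlap, library left out, replicate block and voom.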

Additional observations from a re-analysis of the deposited data

How the results depend on the processing

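Without centring the complement calls were 2 for RLMs at 24 h against blood, 0 for TIM4+ Nr1h3 knockouts against controls, 16 for TIM4- against TIM4+ knockouts and 0 for titled Smad4 knockouts. With quantile normalisation they were 4 for RLMs at 24 h against blood, 3 for TIM4- and 0 for TIM4+ knockouts against controls, and 0 for titled Smad4 knockouts. Dropping peaks under 16 left 6 for Kupffer cells against RLMs at 48 h, 1 for TIM4+ and 2 for TIM4- knockouts against controls, and 1 for TIM4- against TIM4+ knockouts. Merging only at 100 bp of overlap left 1 for TIM4+ knockouts and 0 for titled Smad4 knockouts, and a pseudocount of 5 left 1 for TIM4+ knockouts. Leaving out 1 library at a time gave 3 to 10 for RLMs at 24 h against blood, 0 to 3 for 48 h against 24 h, 2 to 7 for Kupffer cells against 48 h and 5 to 8 against blood. It gave 0 to 1 for TIM4+ and 2 to 6 for TIM4- knockouts against controls, 1 to 3 between the knockouts, and 0 for titled Smad4 knockouts and for DLL4 in each case. The cause of these shifts was not tested. No named region changed direction under any alternative run, and over all repeats with 1 library left out 87 calls passed and 84 did not. Limma voom on the whole tags behind each value, chosen after seeing the data, gave the reported number of calls in all 9 comparisons. The planned count test on those tags was not run.

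A replicate block gave 3 calls for TIM4+ and 7 for TIM4- knockouts against controls, 2 between the knockouts and 0 for DLL4. Same-numbered libraries did not deviate together (r = 0.0088, -0.0043, 0.0611 and -0.038). This cannot tell whether same-numbered libraries came from the same mouse or culture. Groups of 2 or 3 libraries and the peak thresholds limit what weak regions such as the Vsig4 start can show.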
